A study of Mus musculus with 8 samples.

Results

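The transcriptome described here is that of the normal mouse caput epididymis, as read from the 4 wild-type libraries among the 8 libraries of the series. Members were chosen by their genotype label alone, so no expression value entered the choice, and no value from a Nell2-knockout library was used. Each wild-type sample was the caput epididymis of a C57BL/6N male of wild-type genotype at 14 weeks of age, without any treatment given in the labels. The tissue was frozen whole, its column-purified RNA went through a single round of linear amplification before stranded mRNA libraries were made, and an Illumina GAIIx gave single reads of 36 bases. The labels number the libraries as replicates 1 to 4 without stating that each came from a different animal, so every p-value below measures only the spread between these samples, which may be technical. The amplification and the dissection of whole tissue limit these libraries as a model of the epithelium, since muscle, connective tissue, blood vessels and luminal sperm enter with it. In such bulk samples, fewer cells of a type and less RNA per cell cannot be told apart.

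The caput is the first stretch of the long coiled duct in which sperm leaving the testis become motile and able to fertilise. Its epithelium is made mostly of principal cells, which secrete proteins into the lumen and take up fluid, with narrow and clear cells that acidify the lumen and basal cells that sit against the basement membrane. The most proximal part, the initial segment, depends on androgen and on luminal factors made by the testis, and the secreted proteins of the caput coat sperm, bind small hydrophobic molecules, inhibit proteases and protect against peroxides and microbes.

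The 4 libraries held 2517387, 2073811, 2079471 and 2176667 counts in replicates 1 to 4, spread over 24059 gene symbols. A read was found for 17046 symbols in at least 1 library and for 13776 in all 4, while 7013 symbols had none in any. At these depths a count of 3, taken as the limit that 0 reads allow, stood for 1.18 to 1.46 CPM (counts scaled to a common library total) in a single library and 0.339 CPM over all 4. Replicate 2 stood apart from the others. The chi-square of counts per degree of freedom between pairs of libraries was 8.02 to 10.5 for its 3 pairs and 1.29 to 2.09 for the pairs among replicates 1, 3 and 4. In this sum abundant genes that differ strongly, such as Rn45s and Malat1 below, weigh heavily. The correlation of log levels over the same genes was 0.959 to 0.962 for the pairs with replicate 2 and 0.982 for the others. Protein-coding genes held 98.2% ± 0.819 of counts (SD, n = 4), and the table held no symbol of the mitochondrial genome.

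A single gene stood above all others. Gpx5, which encodes a secreted glutathione peroxidase made by the caput epithelium, took 6.94% ± 0.518 of all gene counts (SD, n = 4). Its CPM was 72380, 62816, 73427 and 68734 in replicates 1 to 4, lowest in replicate 2. Adam7, a membrane protein of the ADAM family that the epididymis passes to sperm, had 26819, 28145, 26622 and 26229 CPM, below Gpx5 in every library. Per gene length, in the authors' RPKM, Gpx5 reached 26399 ± 3541 and the next gene, Defb20, 5829 ± 676, a ratio of means of 4.53, and the 4 libraries of these 2 genes did not overlap. The median RPKM over the 10040 genes abundant enough to be tested between libraries was 6.83, so that Gpx5 stood 3867 times above it. Gpx5 lies on chr13:21286429-21292731 (mm10, minus strand).

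The counts were concentrated in few genes. The 10 most abundant held 16.3% ± 0.337 of counts, the 100 most abundant 35.1% ± 0.374, and 452 genes held 50% of the total. A level of at least 1000 CPM was reached by 86 genes, the highest of which were Gpx5, Adam7 and Spag11b. Chromosomes 13 and 14, with 3.76% and 3.58% of the genes tested, carried 9.44% ± 0.463 and 8.63% ± 0.302 of counts, led by Gpx5 and Adam7. Chromosome 2, which carries most of the lipocalin and cystatin genes named below as well as Defb20, held 10.5% ± 0.372 of counts with 8.13% of the genes tested.

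**Figure D1:**
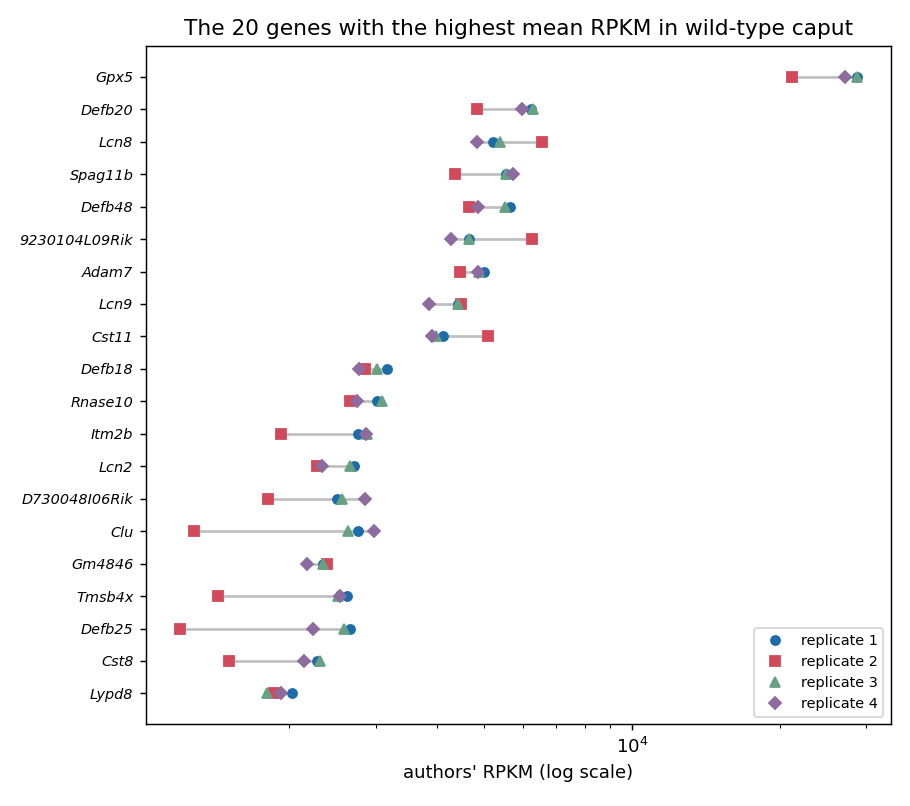
Authors' RPKM on a log axis for the 20 genes with the highest mean RPKM, with 1 point per wild-type library and a grey line from the lowest to the highest library. Gpx5 lies apart at 21206 to 28665, Defb20 follows at 4834 to 6272, and the ranges of most neighbouring genes overlap.

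Below Gpx5, the order of RPKM levels was graded. Defb20, Lcn8, Spag11b, Defb48, the clone 9230104L09Rik (Cstdc2 in RefSeq, of the cystatin family), Adam7, Lcn9 and Cst11 followed with means of 5829, 5496, 5283, 5165, 4960, 4796, 4286 and 4276. Among the 20 highest genes, the ranges over the 4 libraries overlapped with those of the next gene in 18, the exceptions being the steps after Gpx5 and after Cst11. Of these 20 genes, 16 were also among the 30 with the highest mean CPM. The highest genes by CPM after Spag11b were Ap1s2, a subunit of a clathrin adaptor complex, at 9462 ± 446, Rnase10, a secreted RNase A relative needed for sperm function, at 7760 ± 447, and Itm2b, a widely expressed membrane protein, at 7445 ± 844. CPM is not scaled to length, so it orders genes by their share of reads and not by transcript number.

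Other genes among the 30 highest by CPM had varied roles. Clu, a chaperone secreted into the lumen, reached 7745, 4215, 7503 and 8379 CPM in replicates 1 to 4, and the value of replicate 2 was the lowest. Gpr64, now Adgrg2, an adhesion receptor of the efferent ducts and proximal epididymis, had 5135 ± 532 CPM, and Glul, glutamine synthetase, 4103 ± 317. Muc15, a membrane mucin, had 5044 ± 976, Mfge8, a secreted protein that binds phosphatidylserine, 3515 ± 336, and Cuzd1 3647 ± 357. Gm4846, named Fmo13 in RefSeq after the flavin monooxygenases, had 6568 ± 714, and the small proteins D730048I06Rik and 9230110F15Rik, which RefSeq names Pate6 and Pate5, had 5229 ± 641 and 3167 ± 117. Some of these levels are uncertain because annotated genes overlap, and the sources used here do not say whether the counting kept the strand. The span of 5830403L16Rik (Teddm2 in RefSeq, 4454 ± 366 CPM) holds Teddm1 (3308 ± 713) on the other strand and 285 bases of Glul. It also shares 2527 bases with Gm5531 (Teddm1b in RefSeq, 2941 ± 127 CPM) on the other strand. Muc15 lies within the span of Ano3 on the other strand, and Cuzd1 shares 13739 bases with Fgfr2 on the same strand.

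The ribosomal RNA precursor Rn45s was the seventh gene by mean CPM, although the libraries were made for mRNA. It had 1670, 14720, 6945 and 5776 CPM in replicates 1 to 4, lowest in replicate 1 and highest in replicate 2. Its mean was 7278, and 4797 without replicate 2.

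Secreted-protein families held a large part of the transcriptome. Taken by gene symbol, the beta-defensins, lipocalins, cystatins, RNase A relatives, CRISP and CRISPLD proteins and the WFDC, SPINK and serpin inhibitors together held 7.58% ± 0.317 of counts, and 14.5% ± 0.834 with Gpx5 added. Of the 180 symbols in these families, 124 had a read and 97 had one in every library. As a share of summed RPKM, which gives short transcripts their due weight, the same families held 19.8% ± 0.392, and 28.8% ± 0.767 with Gpx5. When genes listed under clone names were moved to families by their RefSeq symbols, the share of counts was 8.16% ± 0.221.

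**Figure D2:**
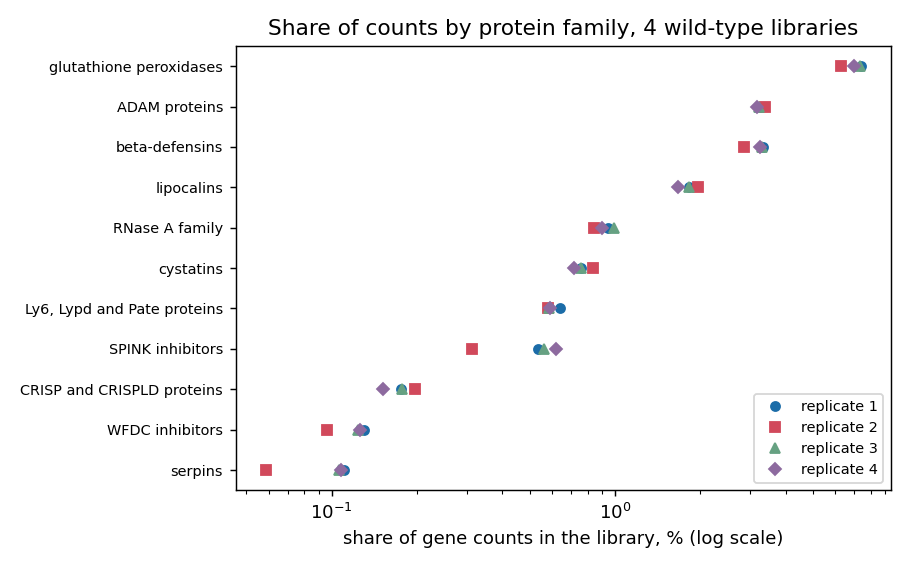
Share of gene counts in each library, in percent on a log axis, for 11 protein families taken by gene symbol. The points of the 4 libraries lie close together for most families, while replicate 2 lies lower for the SPINK inhibitors (0.313%) and the serpins (0.0584%).

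Beta-defensins, small cationic peptides that kill microbes and in the epididymis also bind to the sperm surface, formed the largest of these families. They held 3.18% ± 0.227 of counts and 9.22% ± 0.481 of summed RPKM, with reads for 35 of 44 symbols. Spag11b had 14833 ± 728 CPM, Defb20 6491 ± 326, Defb48 3720 ± 242 and Defb42 1636 ± 178. Spag11b alone gave 46.7% of the family's CPM. At the other end, Defb4, Defb5, Defb7, Defb8, Defb22, Defb26, Defb33, Defb46 and Defb50 had 0 reads in all 4 libraries. The family was spread over several chromosomes, with Defb20 and Defb25 on chromosome 2, Defb48 and Defb42 on 14, Spag11b on 8 and Defb18 on 1.

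Lipocalins, barrel-shaped carriers of retinoids and other hydrophobic molecules, held 1.82% ± 0.122 of counts, with reads for 11 of 13 symbols. Lcn8 had 5869 ± 1301 CPM, Lcn9 5854 ± 735 and Lcn2, which binds bacterial siderophores, 3445 ± 229. Lcn5, the epididymal retinoic acid-binding protein, followed at 1325 ± 738. Lcn4 and Lcn11 had 0 reads. The family's most abundant members, like all those named here, lie on chromosome 2.

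Cystatins, inhibitors of cysteine proteases or relatives of them, held 0.768% ± 0.0519 of counts, and 1.30% ± 0.188 when 9230104L09Rik was counted among them. Cst11 had 3872, 5615, 3793 and 3690 CPM in replicates 1 to 4, with replicate 2 above the rest. Cst8 had 2328 ± 282 CPM, Cst12 897 ± 129 and Cst3, the widely secreted cystatin C, 207 ± 20.4. The RNase A family held 0.920% ± 0.0623 of counts, and Rnase10 gave 84.3% of its CPM. Rnase9 and Rnase12 followed at 912 ± 594 and 310 ± 6.16 CPM, and Ang2, Ang3, Ang5 and Ang6 had 0 reads.

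Protease inhibitors were a smaller share. The SPINK (Kazal-type) inhibitors held 0.507% ± 0.134 of counts, led by Spink5 at 1783 ± 70.7 CPM and Spink11 at 1731 ± 774, with reads for 9 of 12 symbols and none for Spink3, Spink7 and Spink14. The WFDC family held 0.119% ± 0.0154, led by Wfdc10 at 414 ± 59.1 CPM, Wfdc8 at 243 ± 61.4 and Eppin, an inhibitor on the sperm surface, at 205 ± 47.2. Wfdc6b shares 105 bases with Wfdc8 on the other strand and had 98.5 ± 24.5 CPM. The serpins held 0.0958% ± 0.0250, with reads for 30 of 62 symbols, led by Serpina1f at 442 ± 224 CPM, Serpinf2 at 145 ± 11.5 and Serping1 at 107 ± 15.6. CRISP and CRISPLD proteins, cysteine-rich proteins of which several bind to sperm, held 0.175% ± 0.0185, led by Crisp1 at 1196 ± 178 CPM and Crisp4 at 447 ± 18.3.

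Families carried on the membrane or by vesicles added to this. ADAM proteins held 3.26% ± 0.0885 of counts, of which Adam7 gave 82.6% and Adam28 had 4933 ± 328 CPM. The small Ly6, Lypd and Pate proteins held 0.598% ± 0.0270 by symbol, led by Lypd8 at 3428 ± 257 CPM and Ly6g5b at 1786 ± 231. By RefSeq symbol they held 1.48% ± 0.0875. In that grouping D730048I06Rik (Pate6) came first at 5229 ± 641 CPM, and 9230110F15Rik (Pate5), at 3167 ± 117, also lay above Ly6g5b. Beside Gpx5, the other glutathione peroxidases were low, with Gpx3 at 165 ± 33.0 CPM, Gpx8 at 135 ± 12.4 and Gpx1 at 48.5 ± 2.43, and Gpx2 had 0 reads. Gpx8 shares 3658 bases with Cdc20b on the other strand.

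The machinery that folds and moves secreted proteins was abundant, and its summed share varied little between libraries. The 41 genes listed for the secretory pathway of the endoplasmic reticulum and Golgi all had reads in every library and together held 2.40% ± 0.0273 of counts. Single members varied more, and replicate 2 was the lowest library in 24 of the 41 and the highest in 8, with a median ratio to the others of 0.896. Over all genes tested it was lowest in 35.0% and highest in 35.3%, with a median ratio of 0.995. The chaperones Hsp90b1 and Hspa5 had 3503 ± 315 and 3224 ± 96.2 CPM, the lectin chaperone Calr 2429 ± 173 and the disulfide isomerase Pdia3 2287 ± 265. By comparison, 85 cytosolic ribosomal proteins held 0.846% ± 0.0804 of counts, 92 subunits of oxidative phosphorylation 0.502% ± 0.0454 and 26 symbols of the vacuolar proton pump 0.247% ± 0.0132.

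Several genes that nearly every cell uses were listed at or near 0. Rpl26, Ndufs5 and Atp6v0c had 0 reads in all 4 libraries, Rpl30 and Rps27 had 1 read in total, and Rpl34 had 3. Gapdh, a glycolytic enzyme, had 7.85, 12.7, 12.6 and 8.68 CPM, while Eef1a1, an elongation factor, had 4386 ± 438. Of the 36-base words in their annotated transcripts, 74.1% were found in no other gene's transcripts for Rpl26, 74.8% for Ndufs5, 88.4% for Atp6v0c and 73.4% for Gapdh. The median over the ribosomal proteins was 77.2%, against 99.8% over other protein-coding genes. The sources used here do not say how the authors counted reads with several matches, and its part in these values was not tested. A 0 in this table is therefore not taken as absence of the RNA.

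Genes known for the initial segment and the caput had reads throughout. All 22 genes listed for the initial segment and all 24 listed for the caput beyond it had reads in every library, and the lists held 4.41% ± 0.221 and 14.0% ± 0.956 of counts. In the first list, Rnase10, Lcn8, Lcn9, Adam28 and Cst11 were the most abundant. Ros1, a receptor tyrosine kinase needed for the initial segment to form, had 581, 743, 649 and 629 CPM, and Ovch2, a secreted relative of proteases in the same region, 1810, 1933, 2123 and 1915. Ovch2 differed between replicates 1, 3 and 4 beyond counting noise, while Ros1 did not pass that test. Both lists were chosen with earlier results of these data known and hold no genes of the corpus or cauda, so these counts do not set the caput apart from those regions. Nell2, a secreted luminal factor that the testis makes, had 0 reads in all 4 libraries, where the limit from counting error alone is 0.339 CPM. As for the genes above, this 0 is not taken as absence of the RNA.

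Principal cell markers had the highest summed level of the cell-type lists, through Gpx5 and Adam7. The 15 genes of that list summed to 99409 ± 4861 CPM, of which Gpx5 gave 69.8% and Adam7 27.1%. Lcn5 added 1325 ± 738 CPM and the remaining 12 members 1791 ± 66.3. Among these 12 were Epcam, an epithelial adhesion protein, at 383 ± 3.54, Cdh1, E-cadherin, at 275 ± 19.4, and Krt18, a keratin of simple epithelia, at 227 ± 26.7. The narrow and clear cell list summed to 435 ± 32 CPM, with the proton pump subunit Atp6v0d2 at 220 ± 22.9 and Foxi1, the transcription factor of these cells, at 83.9 ± 10.7. Atp6v1b1, the pump subunit often used to mark them, had 5.87 ± 0.959. The water channel Aqp2, also of this list, had 0 reads. The basal cell list summed to 524 ± 15.3, with the transcription factor Trp63 at 173 ± 22.0. In it, the tight-junction protein Cldn1 had 170 ± 5.84 and the keratin Krt5 42.0 ± 6.93, while Aqp3 had 0 reads.

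**Figure D3:**
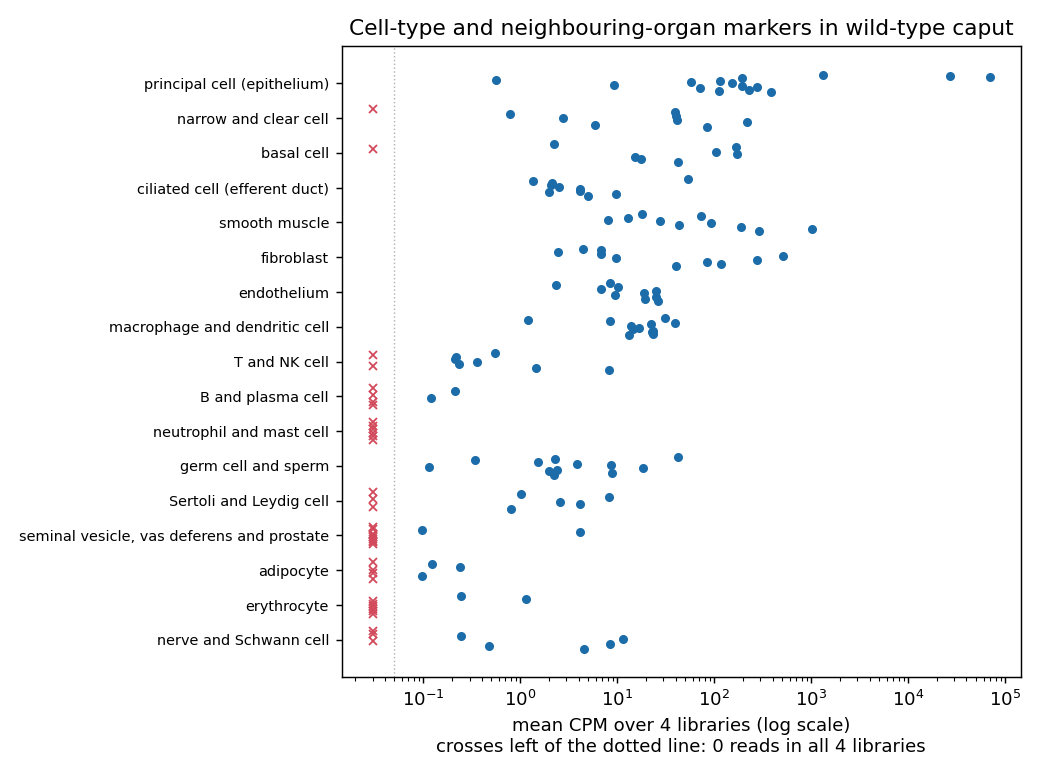
Mean CPM over the 4 wild-type libraries on a log axis, 1 point per marker gene, for 17 lists of cell-type and neighbouring-organ markers. Principal cell markers reach 69339 CPM, muscle, fibroblast, endothelial and macrophage markers lie lower, with Actg2 at 1018 CPM the highest of them, and crosses mark genes with 0 reads in all 4 libraries.

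Markers of the duct wall and its vessels were also present. The smooth muscle list summed to 1772 ± 125 CPM, with the smooth muscle actins Actg2 and Acta2 at 1018 ± 134 and 292 ± 34.0 and the smooth muscle myosin Myh11 at 187 ± 28.2. The fibroblast list summed to 1063 ± 37.2, led by the growth factor receptor Pdgfra at 517 ± 41.1 and the matrix protein Dcn at 274 ± 23.3. The endothelial list summed to 152 ± 14.6, with Pecam1 at 26.6 ± 0.60 and Kdr at 25.3 ± 5.90. In all 3 lists, every one of the 10 members had reads in all 4 libraries.

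Immune cells other than macrophages left few reads. The macrophage and dendritic cell list summed to 231 ± 25.7 CPM, led by lysozyme Lyz2 at 39.1 ± 5.55 and by Cd74, which accompanies MHC class II, at 31.1 ± 5.25, and its 12 measured members had reads in every library. The T and NK cell list summed to 11.3 ± 1.99, most of it the pan-leukocyte gene Ptprc at 8.23 ± 1.48, with Cd3e at 1.47 ± 1.20 and Cd3g and Nkg7 at 0 reads. The B and plasma cell list summed to 0.333 ± 0.225, below the pooled limit for 0 reads, and none of 6 neutrophil and mast cell genes, S100a8, S100a9, Mcpt4, Cpa3, Cma1 and Tpsb2, had a read.

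Markers of blood, fat, seminal vesicle, vas deferens and prostate were near 0. The sums for Sertoli and Leydig cells and for nerve and Schwann cells, given last, were low but not near 0. No haemoglobin gene had a read, but only 8.25% of the 36-base words of Hba-a2 and 45.9% of those of Hbb-bs were found in no other gene. The red cell enzyme Alas2, whose words were all its own, had 1.15 ± 1.00 CPM, and 0.715 without replicate 2. Alas2 shares 23264 bases with Apex2 on the other strand. The adipocyte list summed to 0.462 ± 0.398 CPM, and 0.293 without replicate 3, with Adipoq, Fabp4, Cfd and Retn at 0 reads. In the list for seminal vesicle, vas deferens and prostate, 9 of 11 genes had 0 reads, among them Svs1, Svs2, Svs4, Svs5, Svs6 and Pbsn, and Pate4 had 4.10 ± 1.54 CPM. Sertoli and Leydig cell genes summed to 16.8 ± 3.41, and nerve and Schwann cell genes to 25.1 ± 2.53.

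Ciliated cells, which line the efferent ducts that join the caput, were represented mostly by 1 gene. Their list summed to 87.0 ± 7.78 CPM, of which Ccno, a cyclin needed to make many cilia but not limited to these cells, gave 62%. Foxj1, the transcription factor of ciliated cells, had 3.53, 7.80, 3.87 and 5.02 CPM in replicates 1 to 4, and the axonemal dynein Dnah5 had 4.32, 15.6, 5.81 and 13.2. All these values are low, and those of Dnah5 split between replicates 2 and 4 on the high side and 1 and 3 on the low side.

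Germ cell transcripts were low and differed between libraries. The list of 12 genes summed to 134, 117, 64.9 and 58.5 CPM in replicates 1 to 4, so that replicates 1 and 2 lay above 3 and 4. Smcp, a protein of the sperm mitochondrial capsule, followed the same split at 63.6, 65.3, 21.8 and 20.6. It gave 45.8% of the list's CPM, so its split and that of the sum are not separate observations. Odf1, of the outer dense fibres of the sperm tail, had 27.1, 20.5, 10.6 and 16, and Prm2, a protamine, 13.0, 10.2, 8.71 and 3.65. All 12 genes had a read in at least 1 library.

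Among 51 transcription factors listed for the epididymal epithelium, 47 had reads. The ETS factors Etv5, a target of receptor tyrosine kinase signalling, and Ehf, an epithelial factor, were highest at 413 ± 18.7 and 341 ± 69.5 CPM, followed by Xbp1 and Atf6, which drive the unfolded protein response, at 221 ± 15.6 and 203 ± 12.1. The developmental factor Pax8 had 154 ± 7.16 CPM. Esr1, an oestrogen receptor, had 44.0, 44.9, 36.8 and 48.4 CPM in the 4 libraries, which did not differ beyond counting noise (adjusted p = 0.541, edgeR likelihood-ratio test on Poisson counts). Gata4, Foxa2, Hoxd11 and Hoxc10 had 0 reads. For androgen and retinoid metabolism, the retinal dehydrogenase Aldh1a1 had 1822 ± 65.8 CPM and the 5-alpha-reductase Srd5a2, which makes dihydrotestosterone, 94.1 ± 6.52.

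Genes of ion and water transport were measured at modest levels. The chloride channel Cftr had 195 ± 22.3 CPM and the bicarbonate transporter Slc4a4 143 ± 9.79. The water channels Aqp2, Aqp3 and Aqp5 had 0 reads. Aqp2 was also in the narrow and clear cell list and Aqp3 in the basal cell list. In the antioxidant list, Gpx5 gave 95.4% of summed CPM, and the peroxiredoxins Prdx1 and Prdx6 had 572 ± 85.7 and 510 ± 87.5 CPM.

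The spread between the 4 libraries was then asked of every gene, with a likelihood-ratio test of the library against a common level under Poisson counting noise (edgeR, Benjamini-Hochberg adjustment over 10040 genes). It compares libraries of the same group and no conditions. Of the genes tested, 1931 differed between libraries at an adjusted p under 0.05, a background of 19.2%. Without replicate 2, 132 of 10275 genes did, or 1.28%, and 131 of them were also among the 1931. Leaving out replicate 1, 3 or 4 instead left 1730, 2019 and 1917 genes, or 17.1%, 19.8% and 18.9% of those tested. The biological coefficient of variation common to all genes, which is the spread beyond counting error, was 0.129 over 4 libraries and 0.0507 without replicate 2. Among the 1931 genes, replicate 2 was the library farthest from the gene's median in 1611, or 83.4%.

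**Figure D4:**
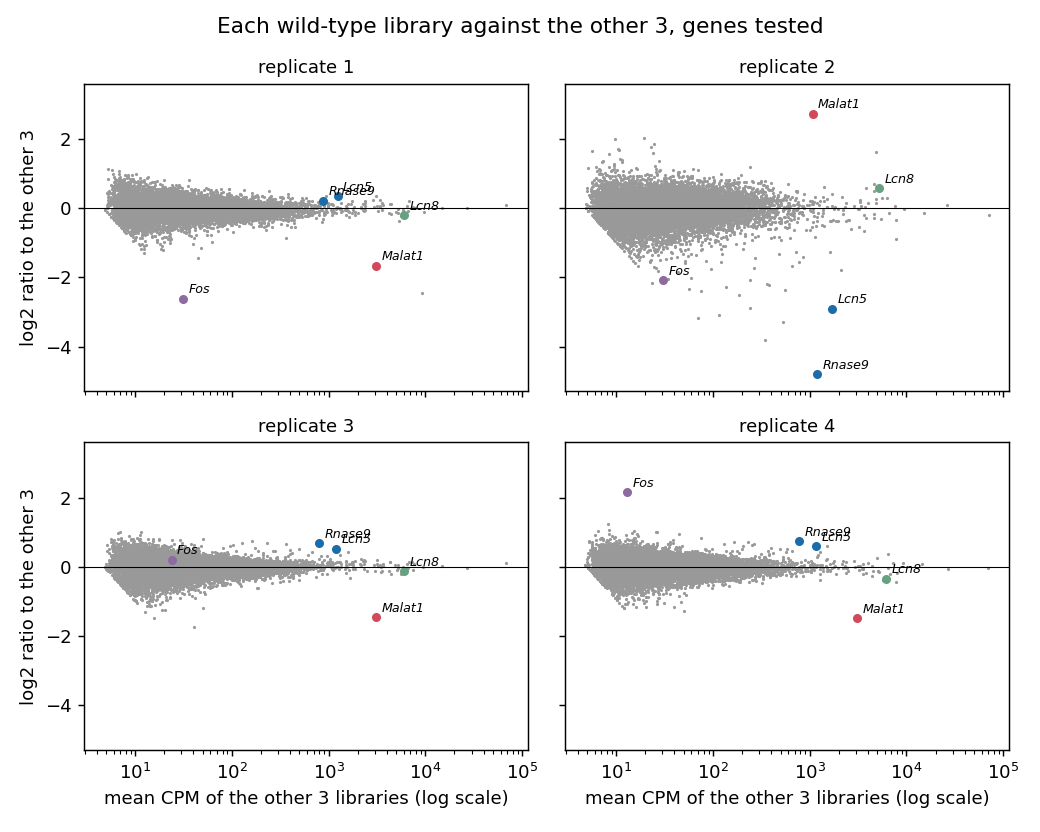
The log2 ratio of each library to the mean of the other 3 (with 0.5 CPM added to both) against that mean in CPM on a log axis, 1 grey point per gene tested and 5 genes in colour. The cloud is widest for replicate 2, where Malat1 lies high and Rnase9 and Lcn5 lie low, while Fos lies low in replicate 1 and high in replicate 4.

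Set against the mean of the other 3, replicate 2 differed by at least 2-fold in 254 genes (2.53% of those tested), 58 higher and 196 lower. The same count was 31 genes for replicate 1 and 30 each for replicates 3 and 4. The median ratio was between 0.992 and 0.996 for each of the 4 libraries, which the scaling of CPM to a common centre largely fixes. In the authors' own scaling, gene counts were a smaller part of the total used for RPKM in replicate 2, at 0.872 of that in replicate 1, against 1.00 in replicates 3 and 4, so RPKM values of replicate 2 lie lower than its CPM values do beside those of the other libraries.

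The share of genes called was higher at higher levels. It was 0.598% in the lowest decile of genes by CPM and 61.7% in the highest decile, and without replicate 2 it was 9.86% of the highest. In the lowest decile, edgeR then called 0 genes, with 31 at an unadjusted p under 0.05. In the lowest decile, the median coefficient of variation of CPM was 20.8%, and 18.2% without replicate 2, below the 23.7% computed for counting error. In the highest decile it was 9.37%, and 4.84% without replicate 2, above the 4.18% computed there. The computed value is not a median over the same few libraries, so neither gap measures the spread beyond counting. The counts of abundant family members given below are read beside these shares.

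**Figure D5:**
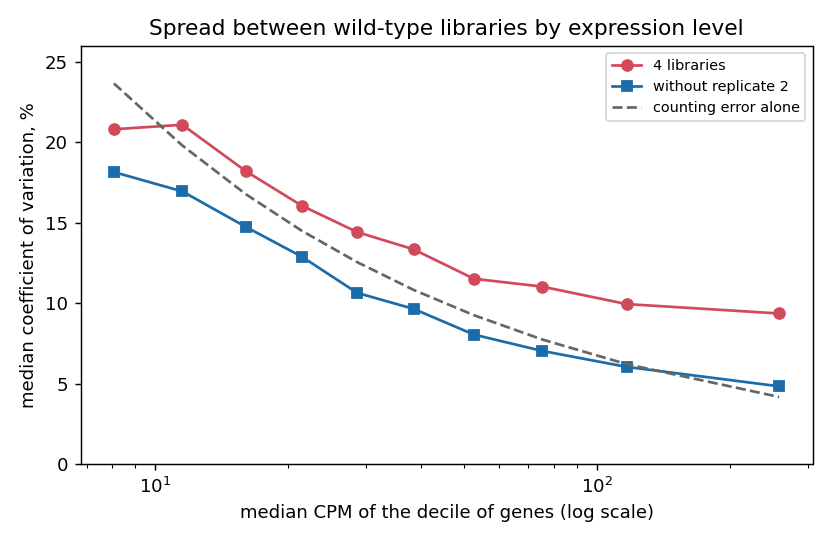
Median coefficient of variation of CPM in percent for each decile of the genes tested, against the decile's median CPM on a log axis, for the 4 libraries, without replicate 2, and for counting error alone. The curve for 4 libraries ends at 9.37% in the highest decile and the curve without replicate 2 at 4.84%. Counting error, at 4.18% there, is computed from the decile's median level and is not a floor for the other curves.

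Abundant secreted-protein genes differed between the libraries in both directions. Of the 20 beta-defensins tested, 17 were called, and 9 of 21 without replicate 2. Of 9 lipocalins, 8 were called, and 4 without replicate 2. Over the union of secreted families, 50 of 73 tested members were called and 22 of 74 without replicate 2. The shares called were 19.2% and 1.28% over all genes tested, and 61.7% and 9.86% in the highest decile by CPM. Replicate 2 was the lowest of the 4 libraries in 43 of the 73 and the highest in 12, beside 35.0% and 35.3% of all genes tested. The median ratio of replicate 2 to the other libraries was 0.819 over these members, 0.548 over the 20 beta-defensins and 0.995 over all genes tested.

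Some members were several-fold lower in replicate 2, among them Rnase9, Lcn5, Defb30 and Defb39. Rnase9, an RNase A relative of the epididymis, had 1021, 42.4, 1277 and 1309 CPM in replicates 1 to 4. Lcn5 had 1574, 225, 1724 and 1777, and Defb30 507, 53.6, 565 and 518. Replicate 2 lay below the mean of the others by 28.3-fold, 7.51-fold and 9.88-fold in these genes, and by 9.61-fold in Defb39. Rnase9 and Lcn5 also differed among replicates 1, 3 and 4, but over a narrower range. Defb30 overlaps Defb42 on the other strand over 2970 bases, and Defb42 itself had 1748, 1369, 1713 and 1713 CPM. Serpina1f had 515, 108, 562 and 583, Spink11 1829, 614, 2139 and 2343, and Rnase13 122, 27.8, 146 and 140. These were again lowest in replicate 2.

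Other secreted-protein genes went the opposite way in the same library. Lcn8 had 5264, 7782, 5524 and 4905 CPM, 9230104L09Rik 4748, 7487, 4814 and 4386, and Cst11 the values given above. In these genes replicate 2 was the highest library. Rnase10, at 7793, 8045, 8083 and 7118, did not set replicate 2 apart at all. Over the initial segment list, replicate 2 was lowest in 10 and highest in 8 of 22 genes with a median ratio of 1.00, and over the list of caput genes beyond it, lowest in 16 and highest in 5 of 24 with a median ratio of 0.850. Within the initial segment list, 18 of 22 genes were called and 12 without replicate 2, and within the other list, 22 of 24 and 11. Beside these counts, 19.2% of all genes tested were called, and 1.28% without replicate 2. In the highest decile by CPM these shares were 61.7% and 9.86%. Among the ribosomal proteins tested, replicate 2 was lowest in 59 of 78 with a median ratio of 0.738, beside 35.0% and 0.995 over all genes tested. With edgeR, 46 of them were called over the 4 libraries and 0 of 79 without replicate 2, where 10 had an unadjusted p under 0.05.

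Lcn8 and Lcn5 are neighbours on chromosome 2, with starts 4834 bases apart and the same orientation, yet their differences in replicate 2 had opposite signs. Their promoters are shown with that of Gpx5, the most abundant gene, because these are the windows beside which the levels above stand. Each is the 300 bases from 250 before to 50 after the RefSeq start (GRCm38.p6, which has the coordinates of mm10), 5′ to 3′ on the gene's strand, with capitals for TATAA and for CCAAT or its reverse complement ATTGG.
Gpx5 promoter, chr13:21292637-21292936, minus strand: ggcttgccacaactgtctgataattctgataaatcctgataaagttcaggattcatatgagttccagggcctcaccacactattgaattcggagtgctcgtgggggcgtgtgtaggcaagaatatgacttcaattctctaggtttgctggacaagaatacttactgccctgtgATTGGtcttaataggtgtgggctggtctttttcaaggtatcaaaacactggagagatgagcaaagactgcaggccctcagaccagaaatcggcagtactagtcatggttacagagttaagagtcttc
Lcn8 promoter, chr2:25652868-25653167, plus strand: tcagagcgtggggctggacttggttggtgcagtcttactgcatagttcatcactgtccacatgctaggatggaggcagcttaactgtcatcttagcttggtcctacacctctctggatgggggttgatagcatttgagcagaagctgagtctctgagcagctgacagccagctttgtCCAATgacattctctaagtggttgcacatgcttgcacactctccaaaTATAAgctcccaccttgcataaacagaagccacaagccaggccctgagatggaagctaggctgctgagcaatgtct
Lcn5 promoter, chr2:25657702-25658001, plus strand: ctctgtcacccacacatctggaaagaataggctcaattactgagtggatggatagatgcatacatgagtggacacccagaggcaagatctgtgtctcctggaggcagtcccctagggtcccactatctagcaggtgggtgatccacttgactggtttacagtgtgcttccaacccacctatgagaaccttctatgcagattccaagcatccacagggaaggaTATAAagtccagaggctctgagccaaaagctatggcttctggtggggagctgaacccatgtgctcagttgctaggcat

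Counted from the start, TATAA began at -26 in the Lcn8 window and at -28 in the Lcn5 window, and no TATAA was found in the Gpx5 window. CCAAT began at -73 in the Lcn8 window and lay on the opposite strand at -77 in the Gpx5 window. Both strands were searched for these words. Of 32851 promoter windows in RefSeq, 24.9% held TATAA and 37.4% CCAAT. Of the 30 genes most abundant by CPM, 23 had a window, and 10 of these genes held TATAA and 10 held CCAAT, against 28.0% and 41.1% of 27025 genes. A further word, AGAACA, was searched as well. It was in 9 of these 23 genes, against 21.3% of all, and in no window printed above. A match of letters is a description and no evidence of a bound factor.

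Malat1 and several genes of nuclear proteins, all among the 15 most variable, were highest in replicate 2. Malat1, a long noncoding RNA kept in the nucleus, had 988, 7133, 1124 and 1103 CPM, 6.66 times the mean of the others in replicate 2, and its mean of 2587 was 1072 without that library. The coactivator Crebbp had 18.8, 79.0, 21.3 and 17.4, the histone methyltransferase Kmt2d 24.7, 71.2, 31.0 and 26.9, and the transcription factors Elk4 and Zbtb20 21.2, 89.7, 30.01 and 22.8, and 16.1, 80.5, 25.7 and 27.4. The means of Crebbp, Elk4 and Zbtb20 were 34.1, 40.9 and 37.4, and 19.2, 24.7 and 23.1 without replicate 2. Relative to their level, Zbtb20 and Elk4 ranged more widely over the other 3 libraries than Malat1 did. Among the 347 genes in which replicate 2 stood above the other 3 by more than Dixon's 95% critical value, the median genomic span was 49516 bases, and among the 206 in which it stood below, 17169, beside 26884 over all genes tested. Over all libraries, 798 of the genes tested, or 7.95%, had a library that stood apart in this way.

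A separate difference did not turn on replicate 2. Fos, an immediate early gene that answers stimuli within minutes, had 4.71, 6.83, 27.6 and 59.8 CPM in replicates 1 to 4, lower in replicates 1 and 2 than in 3 and 4, and its mean of 24.7 was 13.0 without replicate 4. Jun, its dimer partner, had 31.4, 56.1, 46.0 and 85.9, and Egr1, another immediate early factor, 63.2, 105, 84.7 and 120. All 3 were lowest in replicate 1 and highest in replicate 4. They were also the 3 of 31 tested genes of the transcription factor list that were called without replicate 2 (adjusted p = 6.45e-27 for Fos, 2.28e-12 for Jun and 1.62e-07 for Egr1 with edgeR). The share called was then 1.28% over all genes tested and 9.86% in the highest decile by CPM. Fos was named for its high spread, and Jun and Egr1 with their values in view, so these p-values are a description.

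Of the 6494 genes with a mean of at least 20 CPM, the 15 with the highest coefficient of variation also held Ntsr2, Muc5b and Defb39, which were lowest in replicate 2, and Dcdc2a, which had 24.3, 42.9, 11.6 and 53.4 CPM. At the other end, Tcf25 had 209, 209, 211 and 208 CPM, and Hist2h2be 31.0, 30.7, 31.0 and 30.6. Both were chosen for their evenness, so these values are a description. Mycbp, Epcam, Sec14l1, Fuca2, Map2k4, Swi5, Smcr8 and Slc35f5 completed the 10 most even genes, each with a coefficient of variation of 0.627% to 1.04% over the 4 libraries.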

How the data were processed

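RNA of whole caput epididymis was sequenced in 4 wild-type libraries, grouped and numbered by their sample titles. Per the file headers, the deposited table gives each library raw read counts for every gene symbol. Beside them stand the authors' RPKM, whose scaling total is not the sum of the gene counts. Tools named in the submitters' processing notes are Bowtie2 2.2.0, CASAVA 1.8.2 and FastQC 0.11.2, with mm10 as the genome build. How reads were assigned to genes (the tool, the annotation, the use of strand, reads with several matches) is not stated in the labels.

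CPM were computed from library totals and TMM factors (edgeR 4.0.16 in R 4.3.3) over the 4 wild-type libraries alone. Genes that passed edgeR's default filter with a single group were tested for a difference between libraries, with Poisson counts, a likelihood-ratio test and Benjamini-Hochberg adjustment, at an adjusted p under 0.05. The common coefficient of variation came from an intercept-only design. In simulated counts of 10151 genes for this comparison, a small set drawn from the genes with higher counts was changed in a single library. The test recovered 43.3%, 78.5% and 96.5% of those changed 1.5-fold, 2-fold and 4-fold, and called 0.0803% of unchanged genes. Recovery at lower counts was not measured. The counts were drawn as Poisson, with no spread beyond counting, which is what the test assumes. The 0.0803% is therefore not a rate of false calls in the real libraries. Alternatives used RLE scaling, no scaling, no filter, DESeq2 1.42.0 size factors and dispersions, RPKM shares, protein-coding genes alone, and each library left out. Limits for 0 reads reflect counting error alone, as amplified RNA was read without molecular identifiers.

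Gene positions are those of GENCODE M21 (mm10), where 23683 of 24059 symbols were found, 994 of them through RefSeq synonyms. Unique 36-base words were counted among its transcripts. Promoter sequences are RefSeq's on GRCm38.p6.

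The genes, lists and families were chosen with earlier results of these data known. The rule named the 30 genes highest in CPM and the 20 highest in RPKM, the 4 highest members of each list or family and members at 0 reads, the 15 most and 10 least variable genes of at least 20 CPM, Malat1 and Nell2. Where many members were at 0 reads, they are counted and not all named. A few genes it covers are left out here. Ros1, Ovch2, Gapdh, Cdh1, Krt18, Atp6v1b1, Pax8, Esr1, Jun, Egr1, Rpl30, Rps27 and Rpl34 are additions to this rule, picked with their values in view.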

Additional observations from a re-analysis of the deposited data

Results flagged for a closer look

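In each of 165 values, the gap between the highest or lowest library and the nearest of the others was divided by the range of the 4 libraries. It exceeded Dixon's 95% critical value for 4 samples in 24, and the library that stood apart was replicate 2 in 17 of these. Chance flags about 1 in 20 such groups, but these values include genes taken for their high or low spread and sums that share members, so the 24 cannot be read against that rate. Over all 10040 genes tested, 798, or 7.95%, had a library that stood apart.

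Replicate 2 stood above the other libraries for 9230104L09Rik at 7487 CPM, Cst11 at 5615, Hsp90b1 at 3970 and Malat1 at 7133. It also did so for Crebbp at 79.0 CPM, Kmt2d at 71.2 and Elk4 at 89.7. The genes of this group encode secreted, chaperone and nuclear products.

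Replicate 2 stood below the other libraries for Defb42 at 1369 CPM, Lcn5 at 225, Defb30 at 53.6 and Defb39 at 7.31. Lower values were also found in it for Wfdc8 at 152 CPM, Serpina1f at 108 and Prdx6, a peroxiredoxin, at 380. The summed level was low there for the WFDC inhibitors at 974 CPM and for the serpins at 591, of which Serpina1f is the largest member. The part of gene counts in the authors' total was likewise lowest in replicate 2, at 0.872 of that in replicate 1.

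The other libraries stood apart in single values. In replicate 1, Serping1, an inhibitor of complement, was high at 130 CPM and the Ly6, Lypd and Pate proteins summed to a high 6307 CPM, while Epcam at 377 CPM and Smcr8 at 64.0 were low by a margin small beside their level. In replicate 3, Cd74 was low at 23.2 CPM. In replicate 4, Lcn2 was low at 3102 CPM and Atp6v1b1 high at 7.31 CPM.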

How the results depend on the processing

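The number of genes that differed between libraries stayed between 1837 and 1960 under RLE scaling, no scaling, no expression filter and DESeq2 size factors, although without the filter the 1837 were 10.8% of 17046 genes, against 19.2% of 10040, and ran from 132 to 2019 when each library was left out, the lowest value being that without replicate 2. The common coefficient of variation was 0.0507 to 0.149 with each library left out, again lowest without replicate 2. The square root of DESeq2's median per-gene dispersion was 0.171, which is a different measure from edgeR's common value. As shares of summed RPKM, the 10 most abundant genes held 24.0%, the secreted-protein families 19.8%, and 115 genes held 50% of the total, since RPKM divides by length. With families by RefSeq symbol, an alternative chosen after seeing the data, the secreted families held 8.16% of counts. The 13776 genes with a read in every library became 10132 with at least 10 reads in every library. All 16 marker lists, 24 other lists and families and 122 single genes moved by less than 1 SD when a library was left out or the scaling was changed, but a mean of 4 cannot move further than this when a single value is removed, so that is no check of stability. At 2073811 to 2517387 counts, levels near 1 CPM rest on about 3 reads or fewer in a library, and differences between genes at such levels were not detectable at this depth. No paired analysis was possible because the libraries form a single group in which each replicate number occurs once.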
